A study of Mus musculus with 6 samples.

Results

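The 43 genes described here encode enzymes, transporters and regulators of glycolysis, gluconeogenesis, glycogen turnover, the pentose phosphate pathway and pyruvate dehydrogenase. They were listed by symbol, with earlier results of these data known, and all 43 were found in the deposited table of 23036 genes. By role, 16 belong to glycolysis, 2 to glucose transport, 1 to fructose entry, 11 to gluconeogenesis, 6 to glycogen, 4 to the pentose phosphate pathway and 3 to pyruvate dehydrogenase. All 43 passed the filter on low counts in each comparison. The symbol Aldoa also names a second gene of the table, with 0 to 4 counts in a library, which was not tested.

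Liver mRNA was sequenced in 6 libraries from female mice that carried floxed Hkdc1 (fl/fl, here flox) or a liver knockout of Hkdc1 (LKO). Hkdc1 encodes a hexokinase domain protein. Feeding with a western diet began at 8 weeks of age and lasted 20 weeks in every mouse, so that flox and LKO mice shared the diet and no chow-fed group is part of the comparison. The Cre driver of the knockout is not named in the labels. Nor do they say that each library came from its own mouse, so the p-values below describe the spread between libraries, part of which may be technical. The genotype field of the labels names 3 flox and 3 LKO libraries, but the title of flox 3 names LKO and the title of LKO 1 names flox. Hkdc1 had 49 counts in flox 1, 22 in flox 2, 1 in flox 3, 10 in LKO 1, 1 in LKO 2 and 4 in LKO 3, so that the groups named by the titles were apart (10 to 49 against 1 to 4) and those of the genotype field were not. Counts of genes are therefore given for the 4 libraries whose labels agree (flox 1 and flox 2 against LKO 2 and LKO 3) and for the groups of the genotype field and of the titles. Of single genes the value in the 4 libraries comes first. Libraries are named by the genotype field throughout, and fold changes are LKO against flox. The libraries held 16166515 to 17366295 counts, of which the 43 genes took 1.23% to 1.65%.

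Glycolysis splits glucose into pyruvate, and gluconeogenesis rebuilds glucose from lactate, amino acids and glycerol through enzymes that bypass the irreversible steps. The liver runs both, exporting glucose in fasting and storing it as glycogen after a meal, and its hepatocytes use isoenzymes that differ from those of most other cells. The pentose phosphate pathway branches off glucose phosphate and supplies NADPH for lipid synthesis, and pyruvate dehydrogenase commits pyruvate to acetyl-CoA. In mouse liver the transcription factor ChREBP binds a carbohydrate response element before the gene of liver pyruvate kinase, Pklr.

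The promoters of 3 members are shown as examples of those that hold a carbohydrate response element or an E-box. They are those of the liver pyruvate kinase Pklr, the fructose kinase Khk and the glycogen targeting subunit Ppp1r3c. Ppp1r3c had the lowest p of the 43 genes in the 4 libraries whose labels agree. Each sequence runs from 250 bases before to 50 bases after the start of the RefSeq gene on GRCm38.p6, on the strand of the gene. They lie at chr3:89136373-89136672 on the plus strand (Pklr), chr5:30921309-30921608 on the plus strand (Khk) and chr19:36736555-36736854 on the minus strand (Ppp1r3c). Capitals mark the carbohydrate response element in Pklr, which begins 170 bases before the start, and the E-box CACGTG in the others, 71 bases before the start in Khk and 104 bases before it in Ppp1r3c.
Pklr: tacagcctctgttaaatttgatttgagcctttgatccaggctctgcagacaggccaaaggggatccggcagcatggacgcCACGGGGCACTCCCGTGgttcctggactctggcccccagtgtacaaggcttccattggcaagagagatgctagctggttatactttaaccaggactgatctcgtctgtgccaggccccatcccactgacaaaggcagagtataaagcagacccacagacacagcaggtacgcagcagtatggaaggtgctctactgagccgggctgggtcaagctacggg
Khk: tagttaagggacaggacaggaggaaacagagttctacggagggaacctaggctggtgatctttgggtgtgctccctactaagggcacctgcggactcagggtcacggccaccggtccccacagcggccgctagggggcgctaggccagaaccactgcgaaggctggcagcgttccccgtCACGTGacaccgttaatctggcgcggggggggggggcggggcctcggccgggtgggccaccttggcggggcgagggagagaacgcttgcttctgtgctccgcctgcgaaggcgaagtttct
Ppp1r3c: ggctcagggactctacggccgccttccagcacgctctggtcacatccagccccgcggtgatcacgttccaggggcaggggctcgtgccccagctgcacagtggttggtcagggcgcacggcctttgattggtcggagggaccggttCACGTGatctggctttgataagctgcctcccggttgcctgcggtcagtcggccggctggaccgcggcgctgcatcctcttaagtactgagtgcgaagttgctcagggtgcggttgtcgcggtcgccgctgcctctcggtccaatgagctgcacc
RefSeq promoters matched 40 of the 43 members, all but Ppp1r3b, Gys2 and Gpt, and both strands were searched. The E-box CACGTG was present in 8 of the 40 promoters (20.0%: Khk, Ldha, Pcx, Pdk2, Pfkfb2, Pfkfb3, Pfkm and Ppp1r3c), and in 8.09% of 27025 promoters of all genes. The carbohydrate response element of 17 bases, was present in Pklr among the 40 and in 0.137% of all promoters. The cAMP response element TGACGTCA was present in Ldha among the 40 and in 2.03% of all, and the FOXO motif GTAAACA in 0 of the 40 and in 4.05% of all. These are matches of letters in a window, and the data hold no measure of binding.

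The genes of glucose production and of fructose use had the highest levels (mean of the 6 libraries, in FPKM divided by the TMM factor of the library, called scaled FPKM below). Pck1, the phosphoenolpyruvate carboxykinase that starts gluconeogenesis from oxaloacetate, averaged 686 scaled FPKM, Fbp1 627, the tyrosine aminotransferase Tat 441, Khk 322 and the lactate dehydrogenase subunit Ldha 253. The lowest was Pfkp, the platelet-type phosphofructokinase, at 0.73. In all, 15 members were above 100 scaled FPKM, 18 lay between 10 and 100, and 10 were below 10. The ratio of the highest to the lowest library had a median of 1.69 over the members and was above 2 for 13 of them. Pgam1 (1.15), Tpi1 (1.19) and Pfkl (1.23), a mutase, an isomerase and the liver phosphofructokinase, varied little, while Gapdh (3.53), Tat (3.00), Pfkp (2.96), Ppp1r3c (2.77) and Pck1 (2.53) varied most.

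**Figure D1:**
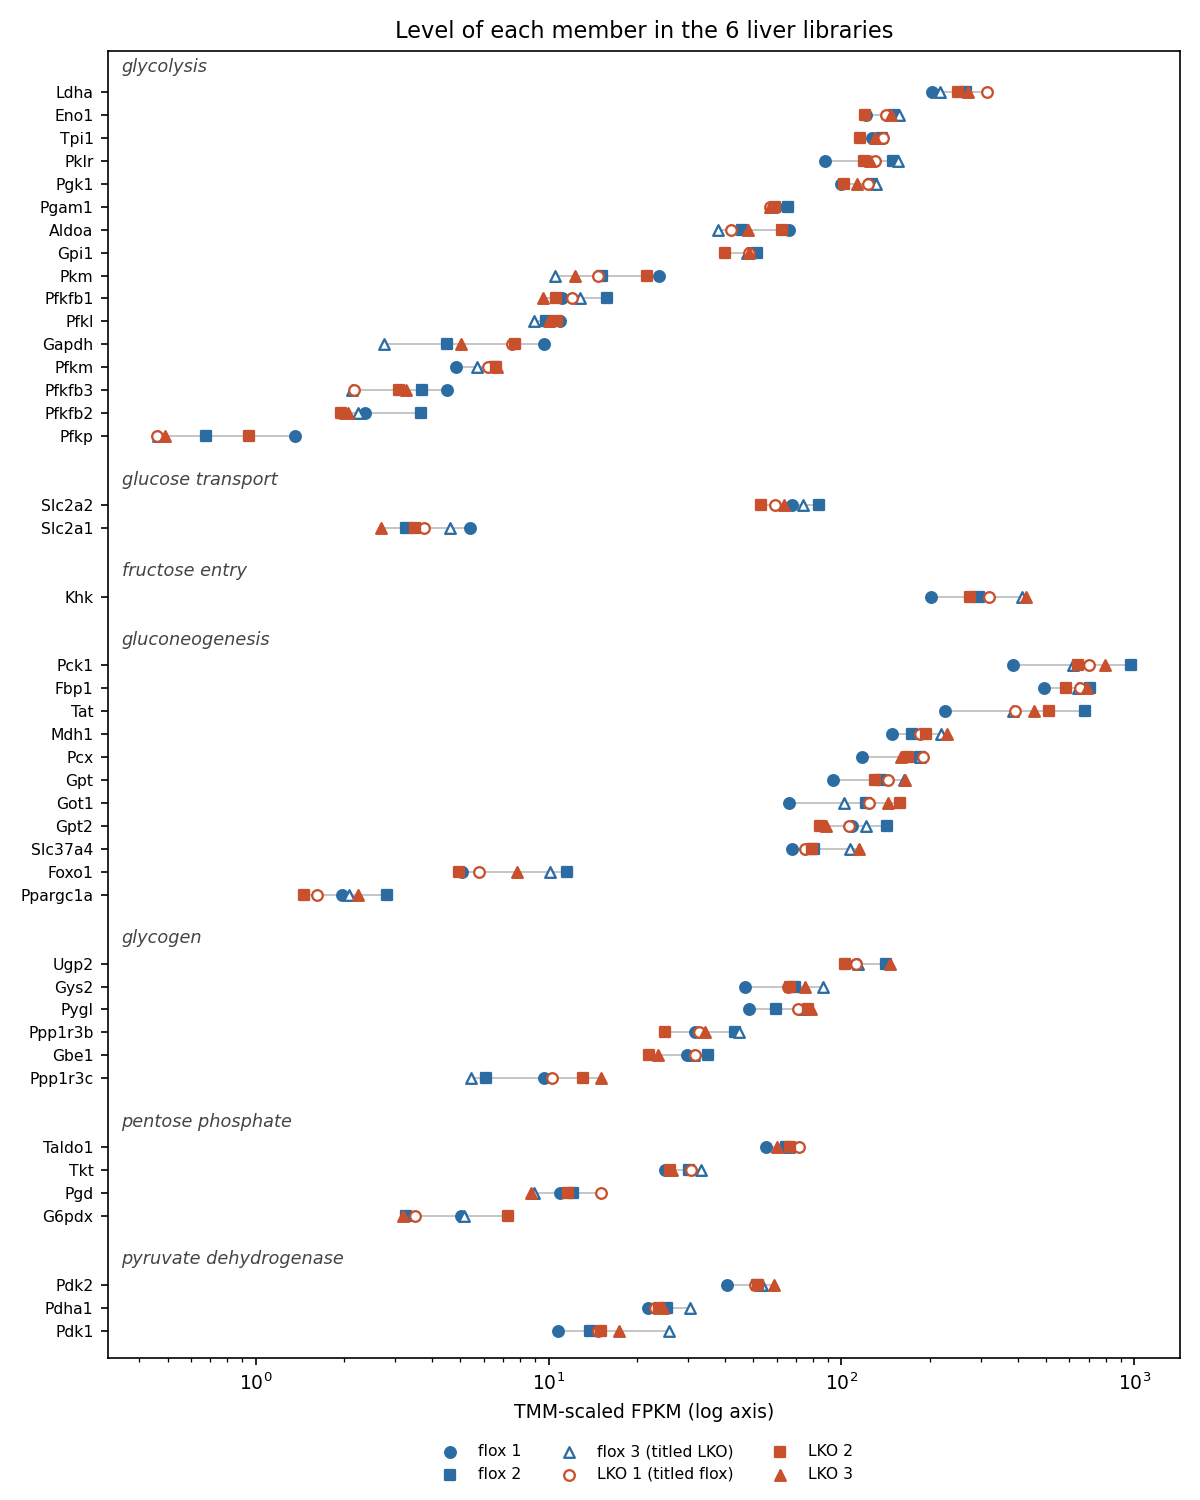
Level of each of the 43 genes in each library, in FPKM divided by the TMM factor of the library on a log axis, by sub-pathway; grey lines join the lowest and the highest library. Levels run from Pfkp at 0.73 to Pck1 at 686 (mean of 6 libraries), and flox 1 lies at the low end for most genes of gluconeogenesis.

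None of the 43 genes passed an adjusted p of 0.05 in any grouping with edgeR's quasi-likelihood test (Benjamini-Hochberg over all genes tested). The count was 0 of 43 in the 4 libraries with agreeing labels, where 0.622% of 14626 genes passed, 0 of 43 in the genotype field groups, where 0.00% of 14310 passed, and 0 of 43 in the title groups, where 0.356% of 14310 passed. DESeq2 called 0 of the 43 in each grouping as well, beside 5.02%, 0.245% and 4.40% of all genes. With limma-voom it was 0 of 43 beside 0.301%, 0.00% and 0.168%. With limma-trend it was 0 of 43 beside 0.540%, 0.00699% and 0.210% for log2(FPKM + 1), and beside 0.827%, 0.00699% and 0.238% for log2(FPKM + 0.1). At an unadjusted p below 0.05, 6 of 43 (14.0%) passed in the 4 libraries, against 16.6% of all genes, with Ppp1r3c and Pygl higher in LKO and Gbe1, Gpt2, Pfkfb3 and Pfkfb2 lower. In the genotype field groups 4 passed (9.30%, against 8.87% of all genes), namely Ppp1r3c and Got1 higher and Slc2a2 and Gpt2 lower, and in the title groups 4 passed (9.30%, against 13.9%), namely Slc37a4, Pdk1, Mdh1 and Pygl, all higher. In bulk tissue, fewer cells of a type and less RNA per cell cannot be told apart.

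The size of the changes was also near that of all genes. In the 4 libraries the log2 fold changes ran from -0.57 to 0.84, with 21 genes above 0 and 22 below, a median of -0.02 (all genes: 0.00) and a median size of 0.27 (all genes: 0.25). The fold change had 1 sign in all 3 groupings for 32 of the 43 genes. The sign differed between groupings for the other 11, namely Aldoa, Eno1, Foxo1, Gapdh, Ldha, Pck1, Pdha1, Pdk1, Pfkl, Pgd and Pklr. The 95% interval of the fold change stayed within 2-fold in either direction for 30 of the 43 genes (69.8%), against 59.9% of all genes tested. It stayed within 2-fold for 38 of 43 (88.4%) in both the genotype field and the title groups, against 71.5% and 71.4% of all genes. For the other 13 genes in the 4 libraries, which include Pck1, Tat, Khk, Got1 and G6pdx, a 2-fold difference lies within the interval.

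**Figure D2:**
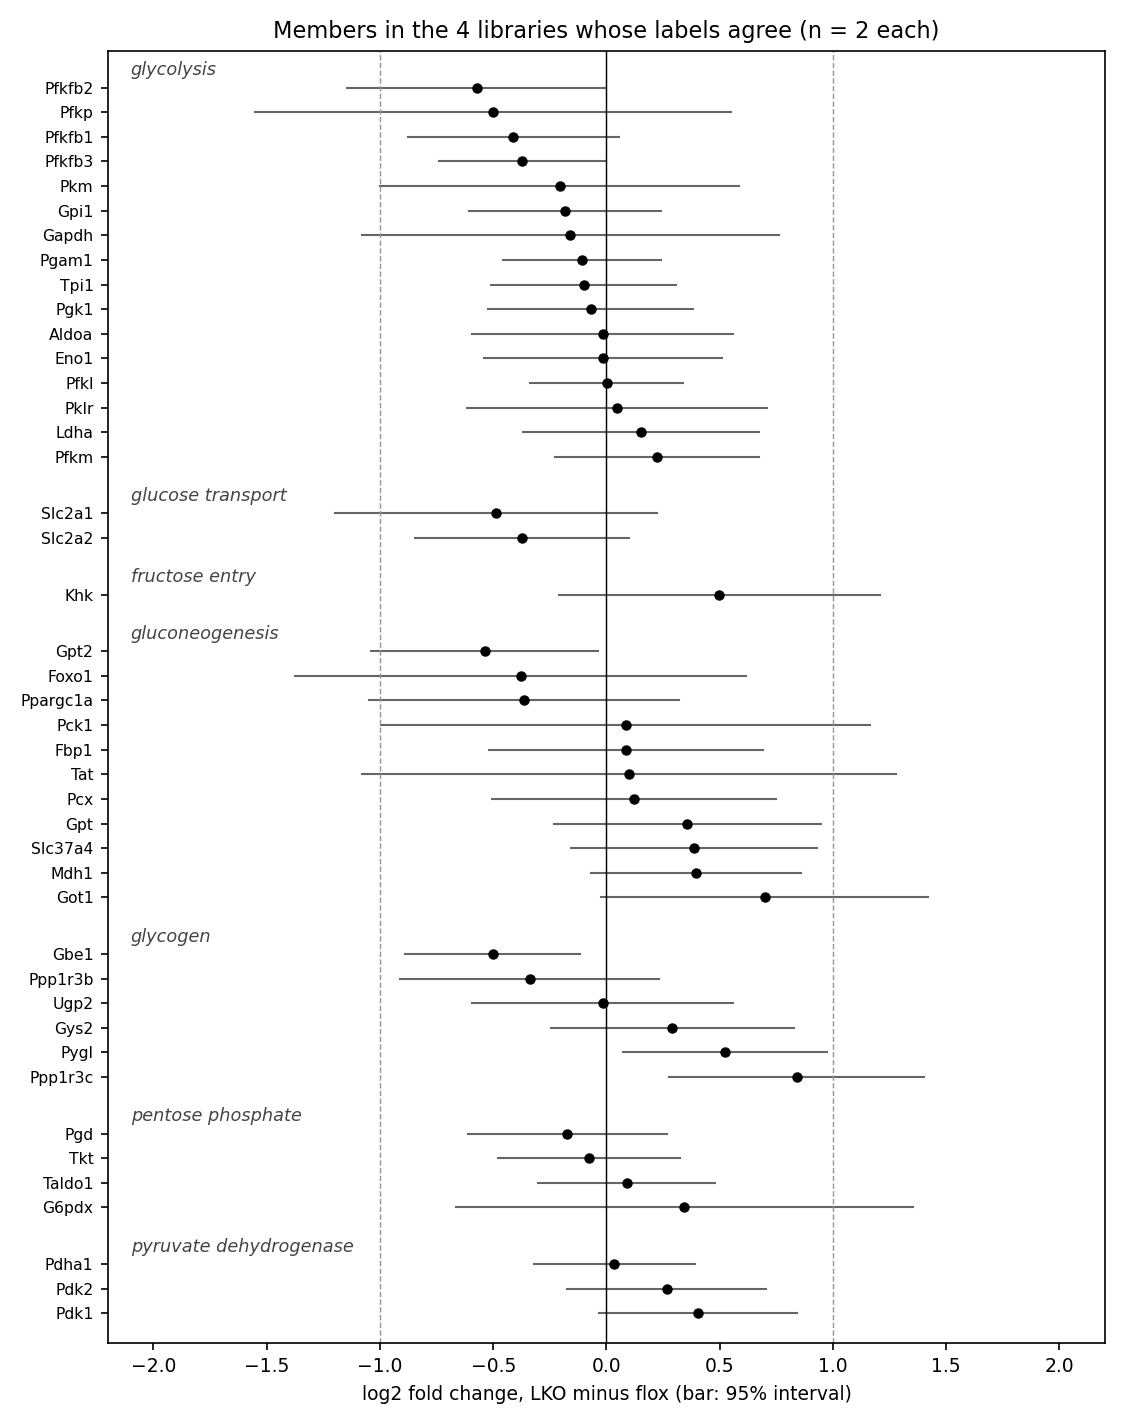
Log2 fold change of each of the 43 genes, LKO 2 and LKO 3 against flox 1 and flox 2, with its 95% interval from edgeR, by sub-pathway. The estimates run from -0.57 (Pfkfb2) to 0.84 (Ppp1r3c), and no gene passed an adjusted p of 0.05.

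Both glucose transporters had negative fold changes in each grouping, and neither passed the test. Slc2a2 (chr3:28752052-28785508, plus strand, GRCm39) encodes GLUT2, the transporter of hepatocytes. It measured 67.9, 83.5 and 73.9 scaled FPKM in flox 1, 2 and 3, and 59.4, 53.2 and 63.4 in LKO 1, 2 and 3. Every flox library was above every LKO library. The log2 fold change was -0.37 (SE 0.19, adjusted p = 0.409, edgeR) in the 4 libraries, -0.35 (SE 0.13, adjusted p = 0.554) in the genotype field groups and -0.15 (SE 0.17, adjusted p = 0.758) in the title groups, where the groups overlapped. Slc2a1, the transporter GLUT1 of most other cells, measured 5.38, 3.26 and 4.61 in the flox libraries and 3.77, 3.49 and 2.67 in the LKO libraries, which overlap. Its log2 fold change in the 4 libraries was -0.49 (SE 0.29, adjusted p = 0.468, edgeR), and it was -0.08 without flox 1. It was -0.42 in the genotype field groups and -0.21 in the title groups. The ratio of Slc2a2 to Slc2a1 lay between 12.6 (flox 1) and 25.6 (flox 2), with all LKO libraries in between. Khk, which traps fructose as fructose phosphate, measured 202, 295 and 413 in the flox libraries and 319, 276 and 426 in the LKO libraries, with flox 3 and LKO 3 close together at the top. Its log2 fold change in the 4 libraries was 0.50 (SE 0.29, adjusted p = 0.459, edgeR).

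In glycolysis, 12 of 16 genes lay below 0 and 4 above in the 4 libraries, with a median log2 fold change of -0.10, and none passed the test. The largest negative values were those of Pfkfb2, Pfkp, Pfkfb1 and Pfkfb3, 3 of them bifunctional enzymes that set the level of the fructose bisphosphate that switches on phosphofructokinase. Pfkfb2, at 2.36, 3.66 and 2.23 scaled FPKM in flox 1, 2 and 3 and at 1.95, 1.96 and 2.07 in LKO 1, 2 and 3, was lower in every LKO library than in every flox library. Its log2 fold change was -0.57 (SE 0.23, adjusted p = 0.300, edgeR) in the 4 libraries, -0.24 in them without flox 2, -0.46 in the genotype field groups and -0.35 in the title groups, which overlapped. Pfkfb1, the form of liver and muscle, measured 11.1, 15.8 and 12.8 in the flox libraries and 12.1, 10.6 and 9.61 in the LKO libraries. The genotype field groups overlapped through LKO 1, and in the 4 libraries the log2 fold change was -0.41 (SE 0.19, adjusted p = 0.355, edgeR), with -0.30 by genotype field and -0.24 by title. Pfkfb3, an inducible form, measured 4.50 and 3.71 in flox 1 and 2 and 3.09 and 3.25 in LKO 2 and 3, but 2.14 in flox 3 and 2.16 in LKO 1. The libraries with conflicting labels were thus the lowest of the 6, whichever group they belong to.

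Gpi1, Tpi1, Pgk1, Pgam1 and Eno1, housekeeping enzymes of the pathway, had log2 fold changes between -0.18 and -0.02 in the 4 libraries, each with a 95% interval within 2-fold. Gpi1, the isomerase that makes fructose phosphate, ranged from 40.0 (LKO 2) to 51.6 (flox 2) scaled FPKM over the 6 libraries. Tpi1 ranged from 116 to 139, Pgk1 from 99.3 to 131, Pgam1 from 56.8 to 65.5 and Eno1 from 121 to 157, each with flox and LKO libraries intermixed over all 6. Ldha, which interconverts pyruvate and lactate, measured 203, 267 and 216 in the flox libraries and 313, 250 and 270 in the LKO libraries, with a log2 fold change of 0.15 (SE 0.21) in the 4 libraries, 0.28 by genotype field and -0.09 by title. Gapdh is uncertain: 77 other genes of GENCODE vM21 match its transcript at 95% identity or more over at least 300 bases, and how shared reads were counted is not stated in the labels. It was listed at only 2.73 to 9.65 scaled FPKM. For other members with such matches the number was between 1 and 4.

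Aldoa, Pkm and Pfkp, forms that predominate outside the liver, shared a pattern over the libraries that did not follow genotype. Aldoa measured 66.3, 45.9 and 38.0 scaled FPKM in flox 1, 2 and 3 and 42.1, 62.7 and 48.0 in LKO 1, 2 and 3. Pkm, the pyruvate kinase of most tissues, measured 23.9, 15.3 and 10.5 in the flox libraries and 14.8, 21.6 and 12.3 in the LKO libraries. Flox 1 had the highest value for both, followed by LKO 2. Pklr went the other way in flox 1, at 87.7 against 150 and 157 in flox 2 and 3 and 130, 120 and 125 in LKO 1, 2 and 3. The ratio of Pklr to Pkm was therefore 3.67 in flox 1 and 5.53 in LKO 2, and 8.81 to 14.8 in the other 4 libraries. The ratio of Pfkl to Pfkp was likewise lowest in flox 1 (8.03) and LKO 2 (11.3) and between 14.5 and 22.4 elsewhere.

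Over the 43 genes, flox 1 was the highest library for 7 and the lowest for 20. The 7 were Pfkl, Pfkp, Pfkfb3, Aldoa, Gapdh, Pkm and Slc2a1, and the 20 held 8 of the 11 genes of gluconeogenesis. Flox 2 was the highest for 12 genes and the lowest for 0. The sums of macrophage, stellate cell and cholangiocyte markers were highest in flox 1. The summed CPM of 10 macrophage markers was 1642 in flox 1 and 1401 in LKO 2, and 903 to 1285 in the other libraries. In flox 1 Lyz2 (613 CPM) and Gpnmb (191) were at their highest, and Clec4f (136) and Vsig4 (49.6) at their lowest. In LKO 2 the macrophage markers Marco (98.6 CPM) and Adgre1 (120) were at their highest and Trem2 (2.77) and Gpnmb (2.89) at their lowest. The summed CPM of 10 stellate cell and fibroblast markers was 1211 in flox 1, 850 in flox 2 and 302 to 453 elsewhere. That of 7 cholangiocyte markers was 493, 375 and 49.7 to 185, with the 49.7 in LKO 2. No marker of these 3 lists was at 0 in every library, nor were the 8 hepatocyte markers. The hepatocyte sum was lowest in flox 1 (62540) and highest in flox 3 (93004). The sum of 6 endothelial markers was also lowest in flox 1 (262), and it was highest in LKO 2 (381). The 8 adrenal cortex markers summed to 2473 in LKO 2 and 256 in LKO 3 and to 2.54 to 4.67 in the other libraries, and 7 adipocyte markers to 119, 15.2 and 0.207 to 1.24. The part of these cells in the levels of the 43 genes was not tested.

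**Figure D3:**
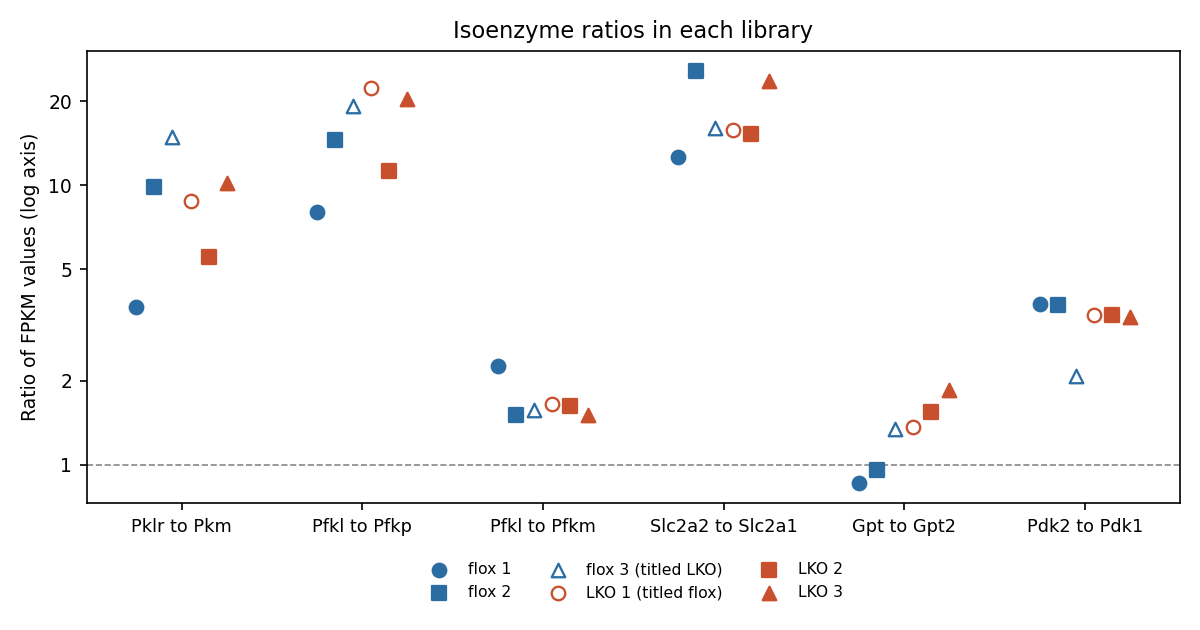
Ratio of scaled FPKM between paired isoenzymes or transporters in each library. Pklr to Pkm is lowest in flox 1 (3.67) and highest in flox 3 (14.8). Gpt to Gpt2 is below 1 in flox 1 and flox 2, 1.34 in flox 3 and 1.37 to 1.86 in the LKO libraries. The title groups overlap in both ratios.

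Of the genes that govern pyruvate dehydrogenase, Pdk1 and Pdk2 had higher values in LKO in the 4 libraries, and no gene passed the test. Both are kinases that phosphorylate and shut down the complex. Pdk1 (chr2:71703568-71734202, plus strand, GRCm39) measured 10.8, 13.8 and 25.7 scaled FPKM in flox 1, 2 and 3 and 14.8, 15.1 and 17.4 in LKO 1, 2 and 3, so that flox 3 stood above all others. The log2 fold change was 0.40 (SE 0.18, adjusted p = 0.336, edgeR) in the 4 libraries, 0.56 (SE 0.21, adjusted p = 0.296) in the title groups, where the groups did not overlap, and -0.09 (SE 0.30, adjusted p = 0.930) in the genotype field groups. The direction thus depends on the group of flox 3. Pdk2 measured 40.6, 51.5 and 53.4 in the flox libraries and 50.7, 51.7 and 58.8 in the LKO libraries, with a log2 fold change of 0.27 (SE 0.18, adjusted p = 0.517, edgeR) in the 4 libraries, 0.15 by genotype field and 0.20 by title. The ratio of Pdk2 to Pdk1 was 3.76 in flox 1 and 3.72 in flox 2, 3.37 to 3.43 in the LKO libraries and 2.08 in flox 3. Pdha1, a catalytic subunit, ranged from 21.9 to 30.3 over the 6 libraries, with a log2 fold change of 0.03 (SE 0.15) in the 4 libraries, -0.12 by genotype field and 0.16 by title. Outside the 43 genes, the kinase Pdk3 had a log2 fold change of the other sign, -1.08 (SE 0.47, adjusted p = 0.329, edgeR) in the 4 libraries, at 0.949, 0.676 and 0.431 scaled FPKM in the flox libraries and 0.486, 0.471 and 0.297 in the LKO libraries. The kinase Pdk4 was at 0.08 (SE 0.38, adjusted p = 0.936, edgeR).

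In gluconeogenesis, 8 of 11 genes lay above 0 in the 4 libraries, with a median log2 fold change of 0.10, and none passed the test. Pck1 and Tat differed more within the flox group than between the groups. Pck1 (chr2:172994841-173001066, plus strand, GRCm39) measured 385, 974 and 616 scaled FPKM in flox 1, 2 and 3 and 702, 644 and 792 in LKO 1, 2 and 3. The lowest and the highest library were both flox, and the log2 fold change was 0.08 (SE 0.44, 95% interval -0.996 to 1.16) in the 4 libraries. Tat showed the same spread, at 226, 678 and 384 in the flox libraries and 392, 511 and 453 in the LKO libraries. Fbp1, the bisphosphatase that reverses phosphofructokinase, ranged from 492 (flox 1) to 705 (flox 2), and Pcx, which carboxylates pyruvate, from 118 (flox 1) to 190 (LKO 1). The summed level of the 11 genes was 1714 in flox 1 and 3213 in flox 2, and 2556 to 2845 in the other 4 libraries. Both extremes belong to flox by title and by genotype field alike.

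Got1 and Mdh1, enzymes that carry amino groups and reducing power between mitochondria and cytosol, were higher in LKO without overlap in the 4 libraries. The same held for 24.0% of all genes, and neither Got1 nor Mdh1 passed the test. Got1 (chr19:43488191-43513044, minus strand, GRCm39), the cytosolic aspartate aminotransferase, measured 66.0, 121 and 102 scaled FPKM in flox 1, 2 and 3 and 124, 159 and 145 in LKO 1, 2 and 3. By genotype field every LKO library was above every flox library, by little between LKO 1 and flox 2, and the title groups overlapped. The log2 fold change was 0.70 (SE 0.30, adjusted p = 0.314, edgeR) in the 4 libraries, 0.56 (SE 0.22, adjusted p = 0.554) in the genotype field groups and 0.38 (SE 0.26, adjusted p = 0.580) in the title groups, and 1.19 and 0.32 in the 4 libraries without flox 2 and without flox 1. Mdh1, the cytosolic malate dehydrogenase, measured 149, 174 and 219 in the flox libraries and 186, 195 and 230 in the LKO libraries, which separated by title and in the 4 libraries (log2 fold change 0.39, SE 0.19, adjusted p = 0.374, edgeR).

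The alanine aminotransferases, which interconvert alanine and pyruvate, had fold changes of opposite sign, and neither passed the test. Gpt2 (chr8:86219205-86254189, plus strand, GRCm39), the mitochondrial form, measured 109, 143 and 122 scaled FPKM in flox 1, 2 and 3 and 106, 84.4 and 88.6 in LKO 1, 2 and 3. By genotype field all 3 LKO libraries were below all 3 flox libraries, and the title groups overlapped. The log2 fold change was -0.54 (SE 0.21, adjusted p = 0.274, edgeR) in the 4 libraries, -0.42 (SE 0.16, adjusted p = 0.554) in the genotype field groups and -0.28 (SE 0.19, adjusted p = 0.563) in the title groups. Gpt, the cytosolic form, measured 93.9, 136 and 163 in the flox libraries and 145, 130 and 165 in the LKO libraries, with a log2 fold change of 0.36 (SE 0.24, adjusted p = 0.517, edgeR) in the 4 libraries, 0.16 by genotype field and 0.28 by title. The ratio of Gpt to Gpt2 was 0.863 in flox 1, 0.955 in flox 2, 1.34 in flox 3, 1.37 in LKO 1, 1.54 in LKO 2 and 1.86 in LKO 3. It was higher in all LKO than in all flox libraries by genotype field, narrowly between flox 3 and LKO 1, and overlapped by title.

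Of the exporters and regulators, Slc37a4, the carrier that brings glucose phosphate to its phosphatase, measured 67.9, 80.8 and 107 scaled FPKM in flox 1, 2 and 3 and 75.1, 79.5 and 114 in LKO 1, 2 and 3. Flox 3 and LKO 3 were the highest, and the log2 fold change was 0.39 (SE 0.22, adjusted p = 0.459, edgeR) in the 4 libraries and 0.43 (SE 0.16, adjusted p = 0.287) in the title groups. Foxo1, the transcription factor that insulin signalling holds out of the nucleus, measured 5.04, 11.6 and 10.1 in the flox libraries and 5.80, 4.93 and 7.82 in the LKO libraries. Its partner Ppargc1a measured 1.98, 2.81 and 2.08 in the flox libraries and 1.62, 1.46 and 2.24 in the LKO libraries. Both regulators were highest in flox 2, and for both the groups overlapped.

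The glycogen genes held the lowest p of the list and went in both directions, 3 above 0 and 3 below in the 4 libraries. Ppp1r3c (chr19:36709131-36714053, minus strand, GRCm39) encodes PTG, a subunit that brings protein phosphatase to glycogen and so activates glycogen synthase. It measured 9.64, 6.13 and 5.45 scaled FPKM in flox 1, 2 and 3 and 10.3, 13.1 and 15.1 in LKO 1, 2 and 3. Every LKO library was above every flox library by genotype field, with flox 1 and LKO 1 close together, and the title groups overlapped. The log2 fold change was 0.84 (SE 0.23, 95% interval 0.28 to 1.40, adjusted p = 0.168, edgeR) in the 4 libraries, 0.85 (SE 0.24, adjusted p = 0.554) in the genotype field groups and 0.37 (SE 0.35, adjusted p = 0.709) in the title groups. With no filter on low counts the adjusted p in the 4 libraries was 0.00983, and without LKO 2 it was 0.0262; over the 14 settings tried it ranged from 0.00983 to 0.297. Its sister Ppp1r3b, the liver targeting subunit, measured 31.7, 43.5 and 44.6 in the flox libraries and 32.7, 25.0 and 34.2 in the LKO libraries, with a log2 fold change of -0.34 (SE 0.23, adjusted p = 0.527, edgeR) in the 4 libraries, -0.38 by genotype field and -0.06 by title.

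The branching enzyme was lower and the phosphorylase higher in LKO, without overlap in the 4 libraries. There, 25.3% of all genes were lower and 24.0% higher without overlap. Gbe1 (chr16:70110837-70366604, plus strand, GRCm39), which adds branches to growing glycogen, measured 29.8 and 35.0 scaled FPKM in flox 1 and 2 and 22.1 and 23.5 in LKO 2 and 3. Flox 3 (31.4) and LKO 1 (31.7) both lay among the flox values. The log2 fold change was -0.50 (SE 0.16, adjusted p = 0.206, edgeR) in the 4 libraries and -0.31 (SE 0.16, adjusted p = 0.573) in the genotype field groups. Pygl, the liver phosphorylase that releases glucose phosphate from glycogen, measured 48.5, 59.8 and 74.6 in the flox libraries and 70.8, 76.8 and 78.6 in the LKO libraries, with a log2 fold change of 0.52 (SE 0.19, adjusted p = 0.247, edgeR) in the 4 libraries, 0.31 by genotype field and 0.36 by title. Gys2, the liver glycogen synthase, measured 46.9, 69.5 and 86.6 in the flox libraries and 65.5, 66.8 and 75.1 in the LKO libraries. Ugp2, which makes the UDP-glucose that the synthase uses, measured 112, 141 and 114 in the flox libraries and 112, 103 and 147 in the LKO libraries. LKO 2 and LKO 3 thus bracketed the Ugp2 values of all others.

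**Figure D4:**
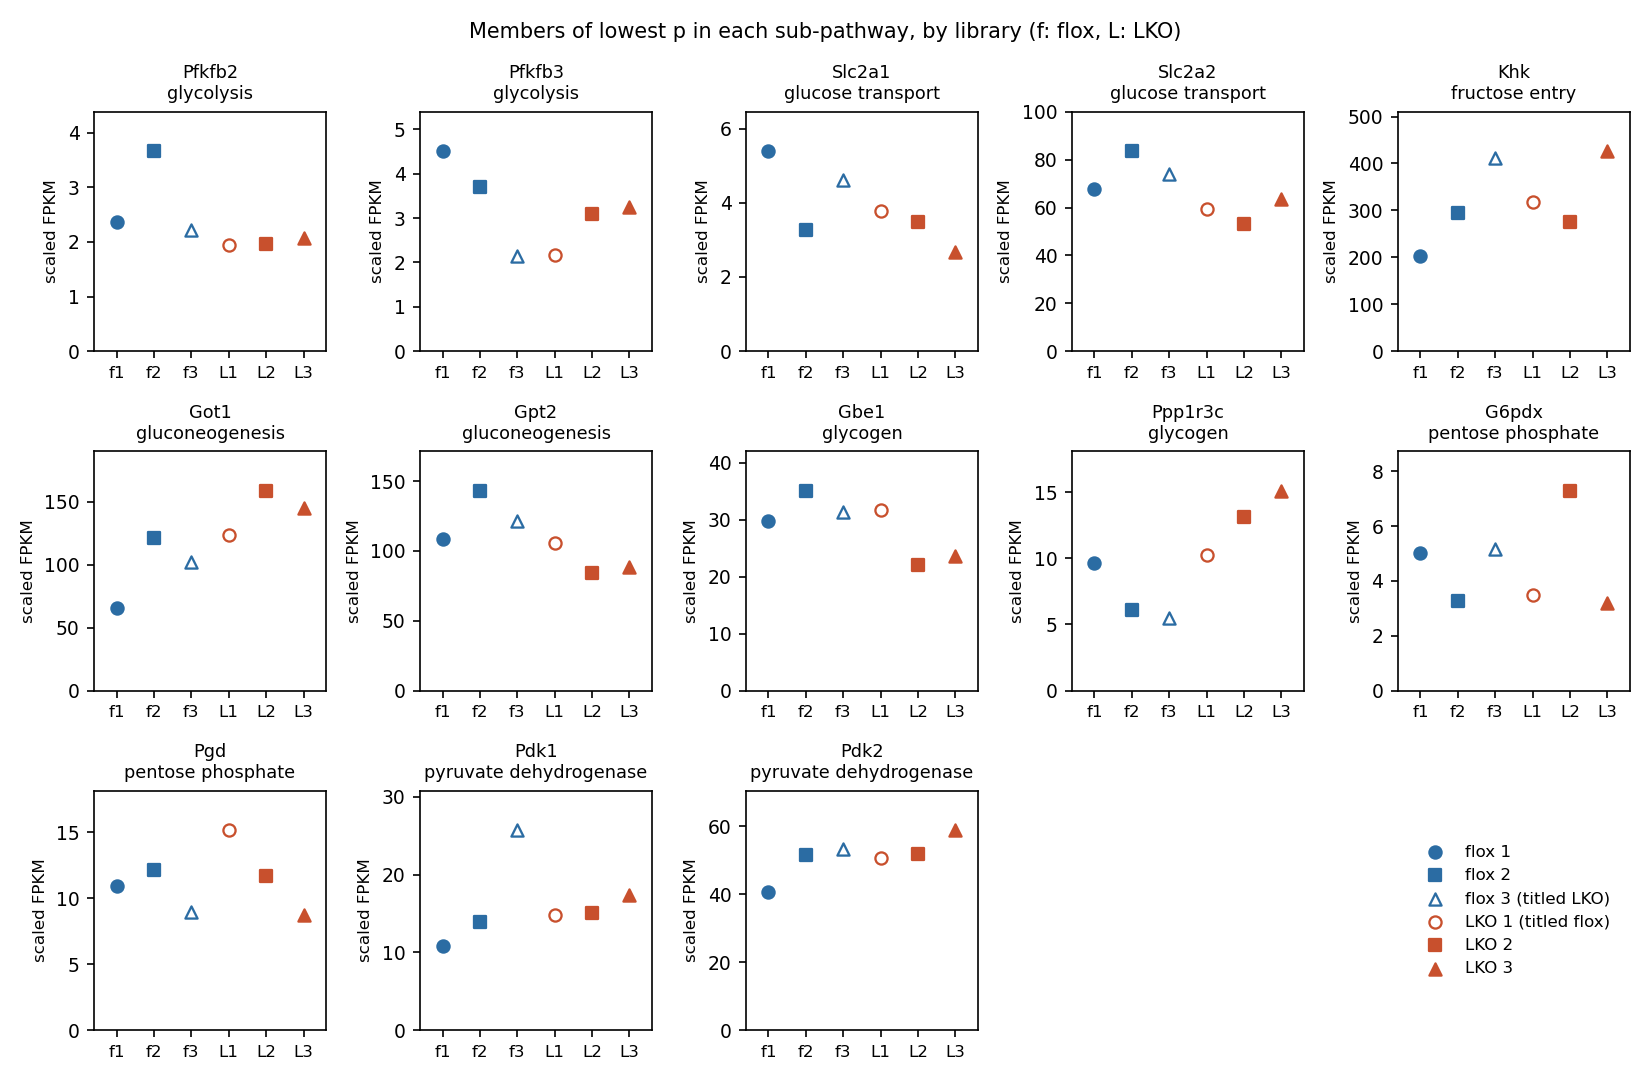
Scaled FPKM by library for the 2 members of lowest p in each sub-pathway (1 in fructose entry), in the 4 libraries with agreeing labels; open symbols are the libraries whose title and genotype field conflict. Ppp1r3c lies at 5.45 to 9.64 in the flox libraries and 10.3 to 15.1 in the LKO libraries, and Gbe1 at 22.1 and 23.5 in LKO 2 and LKO 3 against 29.8 or more in the others.

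The pentose phosphate genes showed no common direction, with 2 above 0 and 2 below in the 4 libraries and a median log2 fold change of 0.01. G6pdx, the dehydrogenase that opens the pathway, measured 5.00, 3.25 and 5.16 scaled FPKM in flox 1, 2 and 3 and 3.50, 7.28 and 3.19 in LKO 1, 2 and 3. LKO 2 was the highest and LKO 3 the lowest library, and the log2 fold change of 0.34 (SE 0.41, adjusted p = 0.734, edgeR) in the 4 libraries turned to -0.37 without LKO 2, and it was 0.06 by genotype field and 0.41 by title. Pgd, the second dehydrogenase, measured 10.9, 12.1 and 8.95 in the flox libraries and 15.1, 11.7 and 8.73 in the LKO libraries (log2 fold change -0.17, SE 0.18, adjusted p = 0.688, edgeR, in the 4 libraries, and 0.02 without LKO 3). By genotype field it was 0.15 and by title -0.38, so that its sign depends on the grouping. Both dehydrogenases thus overlapped between groups. Taldo1, a transaldolase that reshuffles the sugars and had the highest level of the 4, measured 55.1, 64.8 and 66.4 in the flox libraries and 71.8, 67.0 and 60.2 in the LKO libraries. Tkt, the transketolase, ranged from 25.0 to 33.1 over the 6 libraries.

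By sub-pathway, the medians in the 4 libraries, the genotype field groups and the title groups kept 1 sign for glycolysis (-0.10, -0.07 and -0.09), the 2 transporters (-0.43, -0.39 and -0.18), Khk (0.50, 0.17 and 0.45), gluconeogenesis (0.10, 0.08 and 0.06) and glycogen (0.14, 0.01 and 0.16). The pentose phosphate genes stayed near 0 (0.01, 0.08 and 0.00). The sign differed for pyruvate dehydrogenase (0.27, -0.09 and 0.20). The medians of all genes tested were 0.00, -0.01 and 0.00. The 3 groupings share libraries, so that their values are not independent. Values of the 2 groups did not overlap for 7 members higher in LKO (16.3%, against 24.0% of all genes) and 8 lower (18.6%, against 25.3%) in the 4 libraries. The numbers were 2 higher (4.65%, against 7.47%) and 3 lower (6.98%, against 6.87%) in the genotype field groups, and 4 higher (9.30%, against 8.61%) and 0 lower (against 10.4%) in the title groups.

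**Figure D5:**
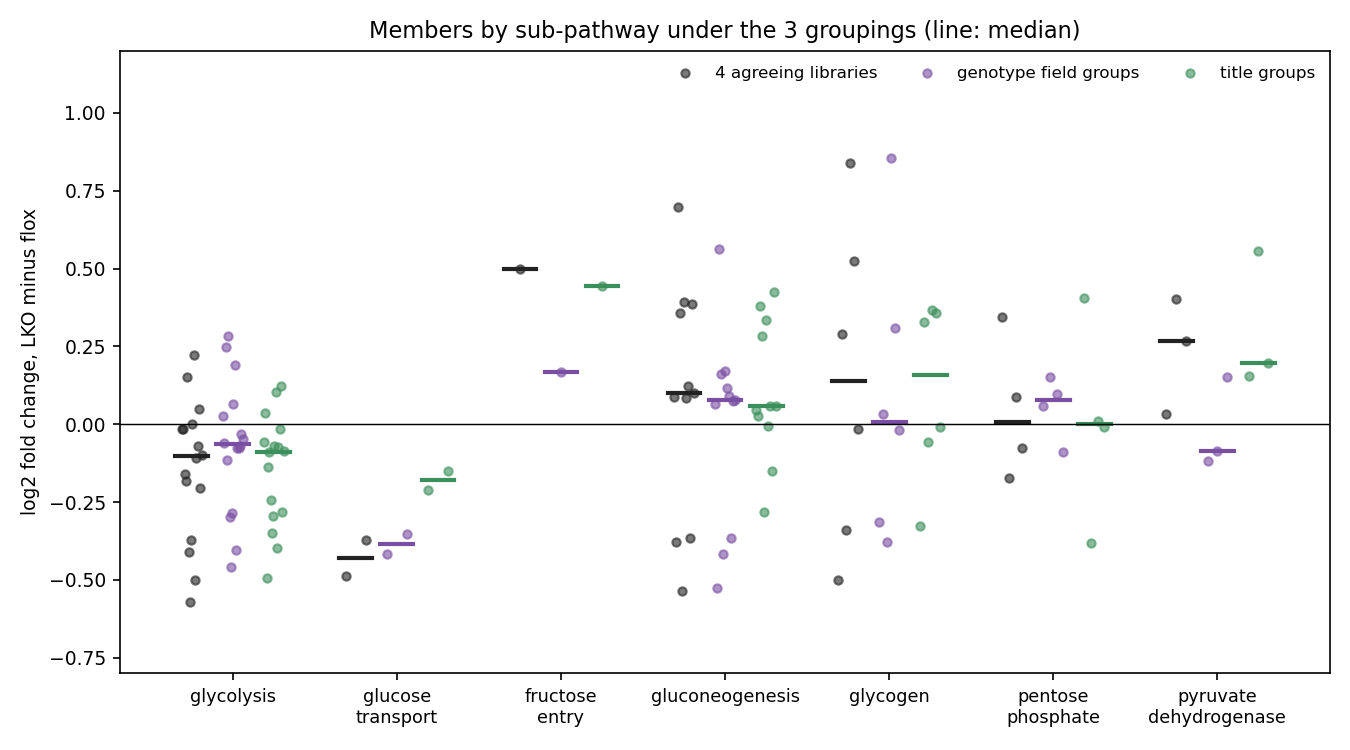
Log2 fold change of each member, LKO against flox, by sub-pathway under the 3 ways of grouping the libraries; horizontal lines are medians. The medians of Slc2a1 and Slc2a2 lie below 0 in all 3 (-0.43, -0.39 and -0.18), and that of pyruvate dehydrogenase is below 0 by genotype field only.

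Among other genes of these pathways, none passed the test either. Of 74 listed, 73 were tested in the 4 libraries and 71 in each of the other groupings, and 0 passed in either direction with edgeR, with 13 (17.8%), 4 (5.63%) and 9 (12.7%) at an unadjusted p below 0.05, against the 16.6%, 8.87% and 13.9% of all genes. The lowest p in the 4 libraries was that of G6pc, the phosphatase that releases free glucose, at 89.3, 89.8 and 97.8 scaled FPKM in flox 1, 2 and 3 and 71.7, 134 and 150 in LKO 1, 2 and 3. Its groups overlapped by genotype field and were apart by title, and the log2 fold change was 0.67 (SE 0.16, adjusted p = 0.134, edgeR) in the 4 libraries. The next lowest p was that of Slc2a10, a glucose transporter at 0.29, 0.26 and 0.055 in the flox libraries and 0.15, 0.068 and 0.053 in the LKO libraries, with a log2 fold change of -2.14 (SE 0.60, adjusted p = 0.172, edgeR) in the 4 libraries. The other glucose transporters tested in the 3 groupings (5, 4 and 4) had medians of 0.27, 0.20 and 0.28. The members Slc2a1 and Slc2a2 had negative medians. These other transporters went in both directions, with 3 above 0 and 2 below (Slc2a10 and Slc2a4) in the 4 libraries. Slc2a4 was at -0.82 (SE 0.34, adjusted p = 0.308, edgeR) there and negative in all 3 groupings. Slc2a8 was at 0.47 (SE 0.19, adjusted p = 0.293, edgeR) in the 4 libraries. By genotype field Slc2a8 was higher in every LKO library (6.99 to 7.61 scaled FPKM) than in every flox library (4.50 to 6.67). The same held for 7.47% of all genes, and the title groups overlapped for Slc2a8.

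Counts of 6 members can hold reads of an overlapping gene on the opposite strand that has at least 10% of their counts, since the labels do not state the strand setting. They are G6pdx, where the overlapping gene has 452% of the member's counts, Pfkp (377%), Pfkfb2 (95.9%), Pfkm (61.1%), Gapdh (60.6%) and Pfkfb1 (15.1%). The values, fold changes and ratios given for these 6 members all carry this limit. Among the phosphofructokinases, Pfkl measured 10.9, 9.82 and 8.90 scaled FPKM in flox 1, 2 and 3 and 10.3, 10.7 and 10.04 in LKO 1, 2 and 3. Pfkm, the muscle form, measured 4.85, 6.54 and 5.69 in the flox libraries and 6.22, 6.59 and 6.64 in the LKO libraries, and Pfkp 1.36, 0.679 and 0.465 and then 0.460, 0.949 and 0.492. Flox 1 had the highest Pfkl and Pfkp and the lowest Pfkm, and the ratio of Pfkl to Pfkm was 2.26 in flox 1 and at most 1.65 in the other libraries.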

How the data were processed

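Liver poly-A mRNA was measured in 6 libraries, 3 flox and 3 LKO by genotype field. The authors deposited whole-number counts and FPKM for 23036 genes. The submitters' processing notes name GRCm39 and featureCounts, HISAT, fastp, Cufflinks and StringTie, without settings. For the 7260 genes with at least 200 counts in every library, the deposited FPKM equal counts over 1 length per gene and the library total, within 0.036%. Totals of 16166515 to 17366295 counts limit the precision for low genes.

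Counts were fitted for all genes with edgeR 4.0.16 (glmQLFit, glmQLFTest, R 4.3.3) after filterByExpr (minimum count 10, total 15) with TMM factors; adjusted p-values (Benjamini-Hochberg) were called below 0.05. The SE is the size of the log2 fold change over the square root of F, and the 95% interval uses the moderated degrees of freedom. The script was tested on simulated data. Levels are deposited FPKM divided by the TMM factor (0.943 to 1.14), a choice made after fold changes and unscaled FPKM were seen to differ in sign; marker sums are CPM. Copies were searched with blastn 2.17.0 in GENCODE vM21 transcripts, and promoters came from RefSeq. Alternatives were DESeq2 1.42.0, limma 3.58.1 (voom, and trend on log2(FPKM + 1) and log2(FPKM + 0.1)), other scalings and filters, and each replicate left out. Values in each library are printed for the 2 members of lowest p in each sub-pathway, the isoenzyme pairs, the member of highest level in each sub-pathway and, beyond that rule, others chosen after their values were seen. The members, lists and rules were chosen with earlier results of these data known.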

Additional observations from a re-analysis of the deposited data

How the results depend on the processing

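No paired analysis was possible because the labels' replicate numbers come from accession order and tie no libraries together. In the 4 libraries 1 member (Ppp1r3c, higher) passed with no filter on low counts; leaving out 1 library gave 0 to 1, the 1 being Ppp1r3c without LKO 2. The other 47 counts were 0, leave-one-out in the genotype field and title groups (0 to 0) included. With 2 libraries in an arm reduced to 1, that library is taken to vary as the other group does.

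The median log2 fold change of glycolysis moved from -0.10 to -0.24 under library size alone, -0.22 under limma-trend with a pseudocount of 1 and -0.23 with 0.1. That of the transporters moved to -0.57 under library size alone, to -0.54 under limma-trend with 0.1 and to -0.18 in the title groups, and that of pyruvate dehydrogenase to -0.086 in the genotype field groups. The median of all genes was -0.13 under library size alone, -0.085 under limma-trend with 1 and -0.13 under limma-trend with 0.1. The limma-trend fits used the deposited FPKM without TMM factors. Otherwise the cause was not tested. Leaving out 1 library gave medians of -0.16 to -0.09 for glycolysis, -0.52 to -0.30 for the transporters, 0.15 to 0.78 for Khk, -0.17 to 0.50 for gluconeogenesis (0.50 without flox 2), -0.07 to 0.34 for glycogen, -0.21 to 0.094 for the pentose phosphate genes and 0.10 to 0.44 for pyruvate dehydrogenase. It reversed G6pdx (-0.37 to 0.82; negative without LKO 2) and Pgd (-0.39 to 0.024; positive without LKO 3). Of the other values of named members, 191 kept direction and side of the threshold, and 2 passed it (Ppp1r3c).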
